A study of Mus musculus with 12 samples.

Results

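The mitochondrially encoded genes are the genes carried by the circular DNA of the mitochondrion itself. They were taken as every row of the deposited table whose chromosome is MT, which gave 37 of 56748 genes: 13 protein-coding genes, 2 rRNA genes and 22 tRNA genes. The proteins are core subunits of the respiratory chain (7 in complex I, 1 in complex III, 3 in complex IV) and of the ATP synthase (2, complex V), while all other subunits come from nuclear genes. Mitochondrial DNA is transcribed from both strands as long precursors, which are cut into single RNAs mostly at the tRNAs that lie between the other genes. The rRNAs and tRNAs serve the mitochondrial ribosome, which translates only these messengers. In the kidney the proximal tubule and the thick ascending limb reabsorb salt and solutes at a high cost in ATP and are rich in mitochondria.

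The 12 libraries came from kidney RNA of male mice, 8 to 12 weeks old, and form 4 groups of 3. WT sham and WT IR came from wild-type mice, and cKO sham and cKO IR from mice in which Krt20, a keratin gene, was deleted in the cells of the proximal tubule; the labels name neither the Cre driver nor the allele. For ischemia/reperfusion (IR), blood flow to both kidneys was stopped with clamps for 30 min and the organs were taken 24 h after release, and sham mice had the operation without the clamp. Whether the libraries are separate animals is not stated, so a p-value measures only how far the libraries spread, which may be technical.

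The 12 libraries held 13187531 to 15962303 reads on genes, and markers of the proximal tubule and the thick ascending limb were abundant in all of them. The extraction text speaks of another tissue, but none of 9 retina markers passed the filter of a mean of 1 FPKM (fragments per kilobase of gene, scaled to the library size). Krt20 stood at 0 to 0.157 FPKM in the 6 sham libraries, at 59.9 to 84.0 in WT IR and at 28.2 to 47.0 in cKO IR, so reads of the deleted gene remained in cKO IR kidneys; which exons were deleted is not stated, and cells outside the proximal tubule keep the gene. The kidneys hold many cell types, and in such bulk RNA fewer cells of a type and less RNA per cell cannot be told apart.

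The 4 tRNA genes called with 46 or more reads in every library are shown with mt-Tp, which held the most reads, as DNA of the coding strand, 5′ to 3′, from the GENCODE M21 transcripts (build GRCm38). All 37 genes have the same coordinates in that annotation as in the deposited table. Capitals mark the anticodon, found by a search for the triplet in a 7-base loop between a 5-base stem with 5 pairs (3 pairs in mt-Tw).
mt-Te: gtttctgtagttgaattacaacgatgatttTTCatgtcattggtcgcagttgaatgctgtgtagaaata
mt-Ty: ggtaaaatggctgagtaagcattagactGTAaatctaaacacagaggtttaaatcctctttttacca
mt-Tw: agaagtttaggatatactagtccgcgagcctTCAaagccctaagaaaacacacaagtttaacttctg
mt-Th: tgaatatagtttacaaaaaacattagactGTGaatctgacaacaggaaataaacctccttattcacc
mt-Tp: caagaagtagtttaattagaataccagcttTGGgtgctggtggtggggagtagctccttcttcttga

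These are the tRNAs for glutamate (mt-Te, chrM:14071-14139, minus strand), tyrosine (mt-Ty, chrM:5260-5326, minus strand), tryptophan (mt-Tw, chrM:4950-5016, plus strand), histidine (mt-Th, chrM:11546-11612, plus strand) and proline (mt-Tp, chrM:15356-15422, minus strand). Genes lie close together: mt-Te follows mt-Nd6 with 0 bases between, and mt-Tw overlaps the end of mt-Nd2 by 2 bases. The protein-coding genes overlap as well. The last 103 bases of mt-Atp8 (chrM:7867-7969, plus strand) are shown because their final 43 bases, in capitals, are also the start of mt-Atp6, so a read there can come from either gene.
mt-Atp8: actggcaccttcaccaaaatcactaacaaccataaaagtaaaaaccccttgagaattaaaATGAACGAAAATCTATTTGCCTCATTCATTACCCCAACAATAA

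Much of the mitochondrial sequence has a second copy in the nuclear genome, annotated as pseudogenes. A 23-base window of mt-Co1 (chrM:6390-6412, plus strand) shows how close these copies are. Beside it stands the same window of Gm29216, the copy on chromosome 1, and of Gm13340, the copy on chromosome 2. Capitals mark the bases that differ from mt-Co1, and in mt-Co1 itself the base at which Gm29216 differs.
mt-Co1: ggaAttgttttatccaactcatc
Gm29216: ggaTttgttttatccaactcatc
Gm13340: ggaattgttCtatccaactcatc

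Counted from the first base of mt-Co1, the difference of Gm29216 is A1066T, the only mismatch in its 483 aligned bases (99.8% identity). The copy has 492 bases, and those outside the alignment were not compared. The alignment starts at base 1063 of mt-Co1, so this mismatch lies at its edge. Gm13340 aligns over all 1545 bases of mt-Co1 with 37 mismatches (97.6% identity). On chromosome 1 the table places 7 such copies in 1 block, chr1:24650616-24655278 (minus strand, coordinates as deposited, build of the nuclear genes not established here), and 6 of the 7 are identical to their mitochondrial gene over every aligned base: Gm28661 (mt-Co2), Gm10925 (mt-Atp6), Gm28437 (mt-Co3), Gm28438 (mt-Nd3), Gm10222 (mt-Nd4l) and Gm28439 (mt-Nd4, covering 63.6% of it). The copies keep the mitochondrial order and nearly the mitochondrial spacing. Between Gm28661 and Gm10925 lie 233 bases, against 230 between mt-Co2 and mt-Atp6, the stretch that holds mt-Tk and most of mt-Atp8; its nuclear sequence was not used here.

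The share of each gene that a nuclear transcript repeats was measured as the percent of its 50-base windows found letter for letter in a nuclear GENCODE M21 transcript, on either strand. It was 98.0 to 100% in mt-Nd3, mt-Nd4l, mt-Atp6, mt-Co3 and mt-Co2. The value was 62.2% in mt-Nd4, 51.1% in mt-Co1, 8.19% in mt-Nd2, 7.61% in mt-Nd5 and 1.04% in mt-Rnr2. No window of the other genes was found, mt-Nd1, mt-Nd6, mt-Cytb, mt-Atp8, mt-Rnr1 and the 22 tRNAs among them; only transcripts were searched, not the nuclear genome.

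The 7 mRNAs with the highest levels were mt-Co1 (mean of 12 libraries 18997 FPKM), mt-Cytb (12964), mt-Nd1 (10069.8), mt-Nd2 (7448), mt-Nd5 (6419.6), mt-Nd4 (5657) and mt-Nd6 (4979.5). mt-Co1 ranked first among all genes of the table by mean FPKM, mt-Cytb had rank 3, and the lowest of the 7, mt-Nd6, had rank 10. Together they held 94.1 to 96.7% of the mitochondrial reads of a library. The other 6 mRNAs were far lower: mt-Atp6 (822 FPKM), mt-Co2 (766), mt-Co3 (573), mt-Nd4l (349), mt-Nd3 (263) and mt-Atp8 (16.8).

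**Figure D1:**
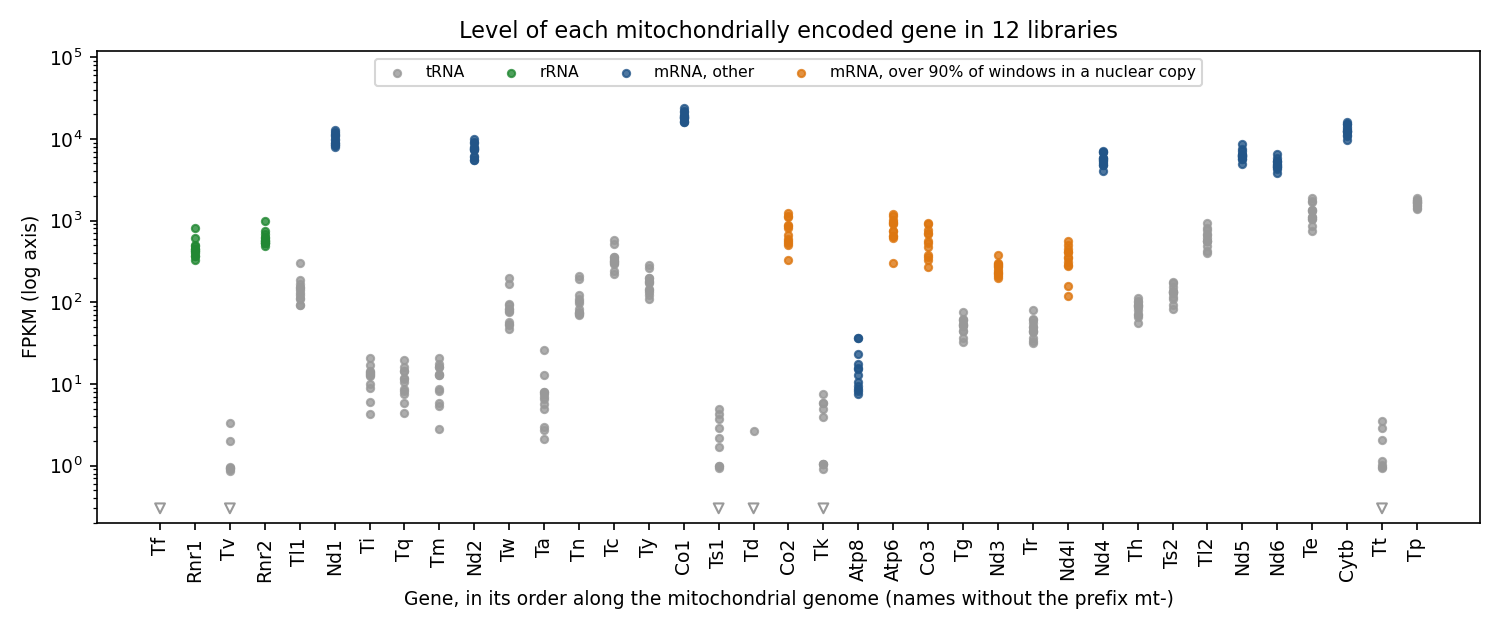
Level in FPKM (log axis) of each of the 37 genes in each of the 12 libraries, with genes in their order along the mitochondrial genome; colours separate tRNAs, rRNAs, the 5 mRNAs with over 90% of 50-base windows in a nuclear transcript, and the other mRNAs, and open triangles at the bottom mark libraries with no read. The 7 abundant mRNAs lie between 3822 and 23684 FPKM, the 5 shared ones between 118 and 1233, and mt-Atp8 between 7.45 and 36.6.

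The 5 mRNAs whose sequence is almost wholly repeated in a nuclear transcript were thus all among the 6 low ones. mt-Co1 and mt-Nd4, repeated over about the 51.1% and 62.2% given above, were among the high ones, and mt-Atp8, with no repeated window, was the lowest of all 13. Spread between libraries of a group was wider in the low mRNAs, shared or not. The coefficient of variation (SD over mean, median of the 4 groups) was 42.6% in mt-Atp8, which shares no window, and 12.1% in mt-Nd3, 20.4% in mt-Atp6, 26.5% in mt-Co2, 31.2% in mt-Co3 and 36.5% in mt-Nd4l, against 6.38% (mt-Co1) to 10.8% (mt-Nd2) in the 7 abundant mRNAs. The nuclear copies themselves held 0.0770 to 0.103% of the reads of a library, with means of 66.1 FPKM (Gm28438) to 332 (Gm29216 and Gm10925) on chromosome 1 and of 5.07 for Gm13340 on chromosome 2. How the authors assigned a read that matches 2 places is not given in the sources used here, so levels of these 5 genes and of their copies are uncertain. The part of shared sequence in their levels was not tested.

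Strand is the other limit on single genes. The table gives no strand of the reads, and the labels name no stranded kit, so reads of mt-Nd6, mt-Te and the other 7 genes of the minus strand cannot be told apart from antisense reads of the same stretch. mt-Nd6 held 2.74 to 3.31% of the mitochondrial reads and all 9 minus-strand genes together 3.03 to 3.57%.

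The mitochondrial share of all reads was highest in WT sham and lower in the other 3 groups. It was 9.94, 9.82 and 10.4% in WT sham (mean 10.0 ± 0.289% (SD, n = 3)) and 7.94, 9.07 and 8.58% in WT IR (8.53 ± 0.562%). The 3 cKO sham libraries stood at 8.47, 8.11 and 8.43% (8.33 ± 0.199%) and the 3 cKO IR libraries at 8.78, 8.38 and 7.29% (8.15 ± 0.769%). Every WT sham library was thus above every library of the other groups. Counting error is small beside these differences, since the 95% Wilson interval of a library's share reaches at most 0.0159 points to either side. Such intervals cover counting error only.

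The mean share of WT IR differed from that of WT sham by −1.51 points (SE 0.365), that is by −15.1% of the WT sham level, and the groups did not overlap. The 2-sided exact permutation test gave p = 0.1, the smallest that 3 against 3 allow (0.2 after Benjamini-Hochberg adjustment over the 4 comparisons). Sham kidneys of the knockout differed from those of the wild type by −1.71 points (SE 0.202, −17.0%, exact p = 0.1, adjusted 0.2), again with no overlap. Within the knockout the difference between IR and sham was −0.188 points (SE 0.459, exact p = 0.8, adjusted 0.8), with overlap, and without the lowest library, cKO IR 3, it was 0.241. After IR the genotypes differed by −0.385 points (cKO minus WT, SE 0.550, exact p = 0.6, adjusted 0.8), with overlap, and by 0.0441 without cKO IR 3. The change with IR was 1.33 points less negative in the knockout (SE 0.586, a value with no test). The comparisons of WT IR and of cKO sham use the same 3 WT sham libraries, so they are not independent of each other.

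**Figure D2:**
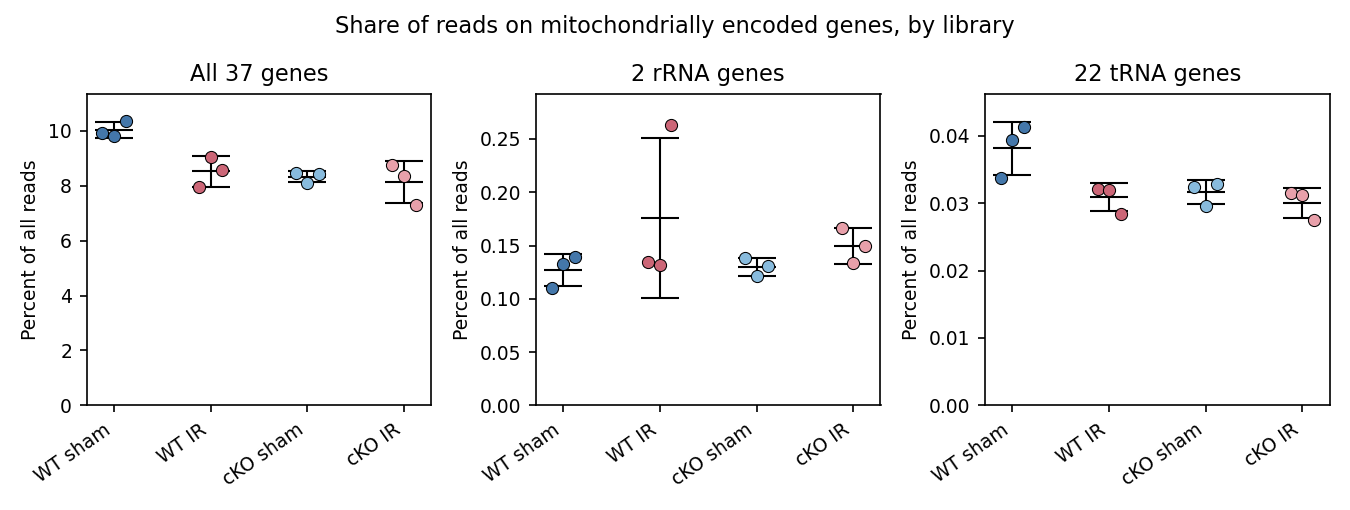
Percent of all reads of a library that fall on the 37 mitochondrial genes (left), the 2 rRNA genes (middle) and the 22 tRNA genes (right); points are single libraries, and bars give the group mean ± SD (n = 3). WT sham lies between 9.82 and 10.4% on the left, above all 9 other libraries, while in the middle WT IR 3 stands apart at 0.263%.

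Split by complex, the complex I genes took 4.65 ± 0.174% (WT sham) and 3.84 ± 0.272% (WT IR) in the wild type, and 3.79 ± 0.109% (cKO sham) and 3.67 ± 0.422% (cKO IR) in the knockout, as percent of all reads, mean ± SD with n = 3 here and in the next sentences. Complex IV took 3.45 ± 0.0938%, 2.96 ± 0.178%, 2.94 ± 0.153% and 2.86 ± 0.154% in the same order. Complex III, that is mt-Cytb, took 1.72 ± 0.0183%, 1.46 ± 0.135%, 1.40 ± 0.0139% and 1.39 ± 0.167%. In these 3 complexes WT sham did not overlap with WT IR or with cKO sham, and the means differed by −14.1% (complex IV) to −17.4% (complex I) in WT IR and by −14.8% to −18.5% in cKO sham. Complex V differed: it took 0.0683 ± 0.00562% in WT sham and 0.0681 ± 0.0249% in WT IR, with overlap, but 0.0454 ± 0.00382% in cKO sham, a difference of −33.5% without overlap, and 0.0458 ± 0.0210% in cKO IR. Each of these non-overlapping differences has an exact p of 0.1, the smallest possible. Single genes carry the values of 2 complexes. Complex V rests on mt-Atp6 (99746 reads over the 12 libraries, against 597 on mt-Atp8), whose level is uncertain because of its nuclear copy. Complex IV rests on mt-Co1 (5220966 reads, against 92759 on mt-Co2 and 79979 on mt-Co3).

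Gene by gene, log2(FPKM + 1) was fitted with limma over all 12 libraries and 12868 tested genes, with a call at a Benjamini-Hochberg adjusted p under 0.05. The 4 groups share 1 estimate of spread for a gene, so wide IR groups also widen the SE of sham against sham. In mt-Nd4 the coefficient of variation was 2.40% in WT sham and 1.84% in cKO sham. It was 10.8% in WT IR and 13.9% in cKO IR. Of the 37 members 34 passed the filter; mt-Tf (no read in any library), mt-Tv (10 reads in all) and mt-Td (3 reads in all) did not. In WT IR against WT sham 6 of the 34 were called, 1 higher and 5 lower, while 42.2% of all tested genes were called (22.6% higher and 19.5% lower). The gap between these shares was not tested. In cKO IR against cKO sham 4 were called, 2 in each direction, beside 50.8% of all tested genes (27.8% higher and 23.1% lower). In cKO sham against WT sham none was called by limma, beside 1.1% of all tested genes (0.847% higher and 0.256% lower), and limma-voom also called none. There 11 of the 34 had an unadjusted p under 0.05, a larger share than the 11.4% of all tested genes. That gap was not tested either. With 1 library left out the count of 11 ran from 2 (without WT sham 3) to 16 (without WT IR 2). In cKO IR against WT IR no member was called by either tool, 1 had an unadjusted p under 0.05 (15% of all tested genes did), and 0% of all tested genes was called. The test of the interaction, which asks whether IR acted differently in the 2 genotypes, called no member by either tool (5 at unadjusted p under 0.05, beside 14.6% of all tested genes) and 0.878% of all tested genes (0.295% higher and 0.583% lower).

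Most members had negative values in both comparisons with WT sham, 27 of 34 in WT IR and 28 of 34 in cKO sham. The median log2 difference of the 34 members was −0.37 in WT IR against WT sham and −0.39 in cKO sham against WT sham, beside 0.01 and 0.00 over all tested genes. It was −0.01 in cKO IR against cKO sham and −0.04 in cKO IR against WT IR, beside 0.02 and 0.03. Without mt-Tt, which had no read in cKO sham, these medians were −0.38, −0.39, −0.03 and −0.06. All 13 mRNAs had a negative value in each of the first 2 comparisons. In WT IR 7 of the 13 lay wholly below WT sham (24.9% of all tested genes did), and in cKO sham 10 of the 13 did (12% of all tested genes). The 7 of WT IR are the 7 abundant mRNAs. In the interaction all 13 had a positive value, 0.04 (mt-Atp6) to 0.999 (mt-Atp8) with a median of 0.39, that is a less negative difference in the knockout, and none passed.

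**Figure D3:**
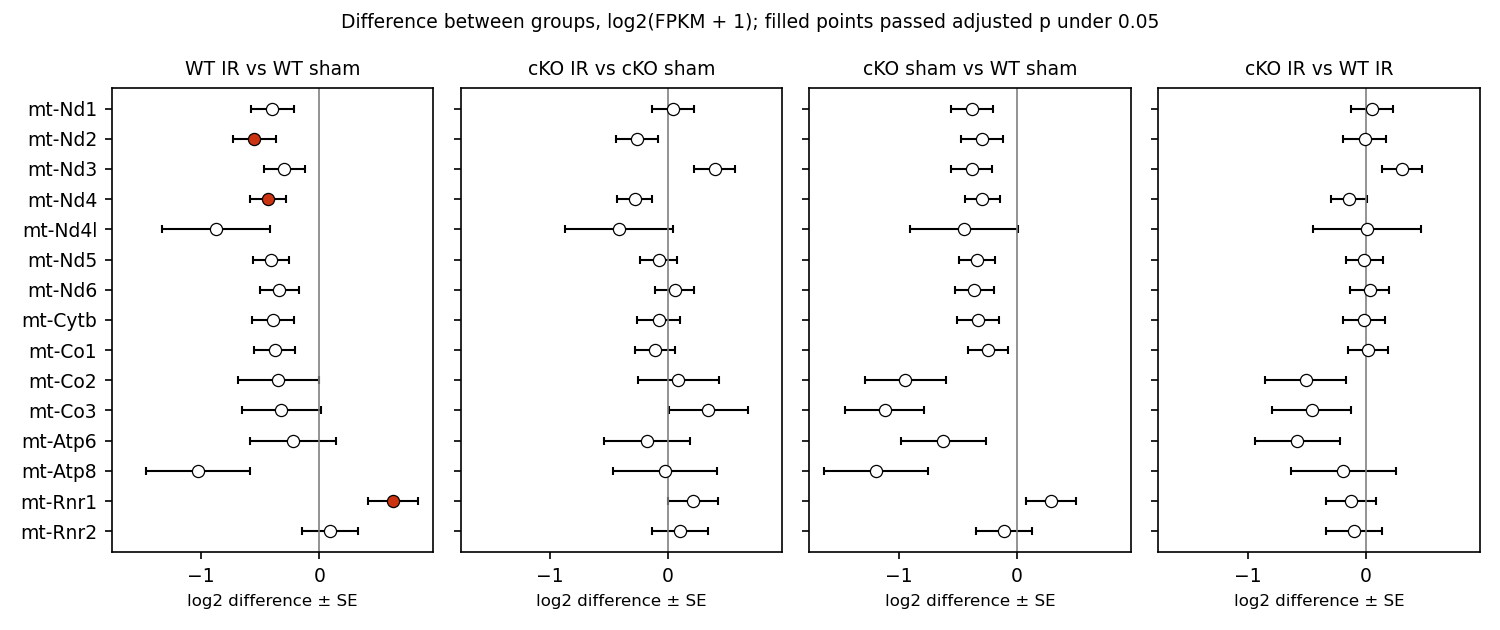
Log2 difference ± SE of the 13 mRNAs and 2 rRNAs in the 4 comparisons, on the log2(FPKM + 1) scale; filled points were called (adjusted p under 0.05). All 13 mRNAs lie left of 0 in WT IR against WT sham and in cKO sham against WT sham, and the filled points are mt-Nd2, mt-Nd4 and mt-Rnr1.

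Complex I, NADH dehydrogenase, takes electrons from NADH and pumps protons, and its 7 mitochondrial genes code for membrane subunits of the pump. mt-Nd2 (chrM:3914-4951) held 9243, 8913 and 9895 FPKM in WT sham and 5585, 7611 and 6139.7 in WT IR. It fell in WT IR by 0.55 on the log2(FPKM + 1) scale, which holds for all fold values given here (SE 0.18, adjusted p = 0.0295), and the groups did not overlap. In the knockout mt-Nd2 stood at 7447, 7406 and 7928 in cKO sham and 7699, 6046 and 5469 in cKO IR. Every cKO sham library lay below every WT sham library (−0.30 ± 0.18, adjusted p = 0.619), and cKO IR overlapped with cKO sham through cKO IR 1 (−0.26 ± 0.18, adjusted p = 0.246).

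mt-Nd4 (chrM:10167-11544) held 6983, 6833 and 7168 FPKM in WT sham and 4727, 5825 and 5055 in WT IR. It fell in WT IR by 0.43 on the log2 scale (SE 0.15, adjusted p = 0.0394), again without overlap. Its cKO libraries stood at 5739, 5594 and 5799 in cKO sham and 5329, 4815 and 4022 in cKO IR, so cKO IR lay wholly below cKO sham, as 27.8% of all tested genes did, by a difference that did not pass (−0.28 ± 0.15, adjusted p = 0.140). cKO sham lay wholly below WT sham (−0.29 ± 0.15, adjusted p = 0.529). Both calls in WT IR were lost when a library of either group other than WT IR 2 was left out (adjusted p 0.0579 to 0.123 for mt-Nd2 and 0.0802 to 0.146 for mt-Nd4). That of mt-Nd4, with its value unchanged, was also lost without any 1 cKO sham library or without cKO IR 2 (0.0563 to 0.0600), and scaling to plain read totals gave −0.39 for mt-Nd2 (0.0512) and −0.28 for mt-Nd4 (0.0909). Scaling to reads outside chromosome MT also lost mt-Nd4 (−0.30, 0.0836). With no filter on the mean level, limma gave an adjusted p of 0.815 for mt-Nd2 and 0.810 for mt-Nd4, far from a call.

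mt-Nd1 (chrM:2751-3707) stood at 11445, 11995 and 12882 FPKM in WT sham and 8500.3, 10757 and 8496 in WT IR, and at 8969, 9009 and 9897 in cKO sham and 11203, 9633 and 8053 in cKO IR. mt-Nd5 (chrM:11742-13565) stood at 7612, 7179 and 8617 FPKM in WT sham and 5701, 6292 and 5625 in WT IR, and at 6149, 6009.8 and 6294 in cKO sham and 6147, 6490.2 and 4919.9 in cKO IR. mt-Nd6 (chrM:13552-14070, the only mRNA of the minus strand) stood at 5832, 5353 and 6502 FPKM in WT sham and 4233, 4987 and 4748 in WT IR, and at 4532, 4494 and 4682 in cKO sham and 5350.1, 5218 and 3822 in cKO IR. All 3 genes were lower in every WT IR and every cKO sham library than in any WT sham library. The differences of WT IR, −0.40 ± 0.18 in mt-Nd1, −0.41 ± 0.15 in mt-Nd5 and −0.34 ± 0.16 in mt-Nd6, did not pass (adjusted p 0.0986, 0.0553 and 0.122), nor did those of cKO sham (−0.38 ± 0.18, −0.34 ± 0.15 and −0.36 ± 0.16, adjusted p 0.439 to 0.458). In WT IR mt-Nd1 and mt-Nd5 passed in limma with a minimum mean of 5 FPKM (adjusted p = 0.0351 and 0.0167). Both also passed without WT IR 2 (0.0272 and 0.0318). mt-Nd5 passed with limma-voom (0.0341) and without cKO IR 3 (0.0333) as well.

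The 2 small complex I genes sit in the shared stretch. mt-Nd3 (chrM:9459-9806) stood at 226, 288 and 376 FPKM in WT sham and 236, 268 and 209 in WT IR, and at 219.8, 199 and 251 in cKO sham and 304, 296 and 279 in cKO IR. It was the only mRNA whose cKO IR libraries all lay above cKO sham, by 0.39 ± 0.17 (adjusted p = 0.0778; 32.6% of all tested genes lay wholly higher), and above WT IR, by 0.30 ± 0.17 (adjusted p = 0.437; 10.2%). The difference of mt-Nd3 between cKO IR and cKO sham passed in limma when scaled to plain read totals (adjusted p = 0.0241). It also passed when scaled to reads outside chromosome MT (0.0266) and without WT sham 1 or WT sham 3 (0.0397 and 0.0359). That between WT IR and WT sham passed without WT sham 1 (0.0395). No mRNA lay wholly below WT IR in cKO IR (5.84% of all tested genes did). mt-Nd4l (chrM:9877-10173) stood at 447, 567 and 408 FPKM in WT sham and 343, 414 and 118 in WT IR, and at 279.8, 288 and 505 in cKO sham and 307, 353 and 158 in cKO IR, with overlap in every comparison. WT IR 3 and cKO IR 3 were its lowest libraries.

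Complex III passes electrons to cytochrome c, and its mitochondrial gene mt-Cytb (chrM:14145-15288) codes for cytochrome b. It stood at 15304, 15329 and 16268 FPKM in WT sham and 11071, 13913 and 10920.4 in WT IR, and at 12395, 12261 and 12601 in cKO sham and 13163, 12511 and 9826 in cKO IR. WT sham lay above all WT IR and all cKO sham libraries, but neither difference passed (−0.39 ± 0.18, adjusted p = 0.0996, and −0.33 ± 0.18, adjusted p = 0.555). That of WT IR passed in limma with a minimum mean of 5 FPKM (adjusted p = 0.0279) and without WT IR 2 (0.0246).

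Complex IV, cytochrome c oxidase, reduces oxygen, and its 3 mitochondrial genes code for the catalytic core (mt-Co1 and mt-Co2) and a structural subunit (mt-Co3). mt-Co1 (chrM:5328-6872) stood at 21891, 21573 and 23684 FPKM in WT sham and 16335, 19285 and 16197 in WT IR, and at 19863, 18065 and 18624 in cKO sham and 18527, 17948 and 15968 in cKO IR. WT sham again lay above all WT IR and all cKO sham libraries, by values that did not pass (−0.38 ± 0.17, adjusted p = 0.10, and −0.25 ± 0.17, adjusted p = 0.690). The value of WT IR passed in limma with a minimum mean of 5 FPKM (adjusted p = 0.0123) and without WT IR 2 (0.0292). It passed with limma-voom as well (0.0410). mt-Co2 (chrM:7013-7696) stood at 807, 1233 and 1125 FPKM in WT sham and 559, 1096 and 891 in WT IR, and at 591, 499.8 and 532 in cKO sham and 859, 667 and 328 in cKO IR. mt-Co3 (chrM:8607-9390) stood at 559, 909 and 935 FPKM in WT sham and 677, 765 and 470.3 in WT IR, and at 527, 269 and 325 in cKO sham and 699.7, 376 and 356 in cKO IR. In both of these shared genes every cKO sham library lay below every WT sham library. The difference was −0.94 ± 0.34 in mt-Co2 and −1.12 ± 0.34 in mt-Co3, the latter the lowest adjusted p of the 13 mRNAs in that comparison (0.184), and neither passed.

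Complex V makes ATP from the proton gradient, and mt-Atp6 and mt-Atp8 code for parts of its membrane sector. mt-Atp6 (chrM:7927-8607) stood at 973, 1128 and 1008 FPKM in WT sham and 939.5, 616 and 1206 in WT IR, and at 639, 639.6 and 741 in cKO sham and 917, 748 and 304 in cKO IR. cKO IR 3 was the lowest of the 12 libraries in this gene, and cKO sham lay wholly below WT sham (−0.62 ± 0.36, adjusted p = 0.601). mt-Atp8 (chrM:7766-7969) stood at 36.3, 15.3 and 36.6 FPKM in WT sham and 10.7, 23.3 and 8.58 in WT IR, and at 7.45, 12.8 and 15.5 in cKO sham and 9.51, 17.7 and 8.25 in cKO IR. It was measured on 23 to 100 reads per library, so it is the least precise of the 13. Neither gene passed in any comparison of the main fit. The widest difference was that of mt-Atp8 between cKO sham and WT sham, −1.19 ± 0.44 (adjusted p = 0.309). In WT IR mt-Atp8 passed in limma without WT sham 2 or WT IR 2 (adjusted p = 0.0291 and 0.0205).

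In the mitochondrial mRNA pool the shares of the abundant mRNAs varied little for their size, and those of the low mRNAs varied more. mt-Co1 made up 33.4% of the mitochondrial mRNA reads or more in every library, mt-Cytb 16.9 to 18.1% and mt-Nd1 10.2 to 12.5%. Among the low mRNAs, mt-Atp6 made up 0.310 to 1.12% and mt-Nd4l 0.0476 to 0.178%. mt-Nd2 made up 9.42 ± 0.135% (WT sham) and 8.54 ± 0.512% (WT IR) in the wild type, and 9.51 ± 0.295% (cKO sham) and 8.56 ± 0.751% (cKO IR) in the knockout, SD with n = 3, with every WT IR library below every WT sham library. mt-Nd4 made up 9.37 ± 0.288%, 9.18 ± 0.255%, 9.50 ± 0.0906% and 8.39 ± 0.160% in the same order, with cKO IR below all other groups. These shares are given as descriptions, with no test.

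Of the 2 rRNAs of the mitochondrial ribosome, mt-Rnr1 rose in WT IR, where the mRNAs had negative values, while mt-Rnr2 showed no clear difference (0.09 ± 0.24). mt-Rnr1, the 12S rRNA of the small subunit (chrM:70-1024), stood at 371, 372 and 329 FPKM in WT sham and 427, 487 and 807 in WT IR, and at 455, 406 and 450.4 in cKO sham and 604, 429.6 and 499 in cKO IR. It rose in WT IR by 0.63 ± 0.21 (adjusted p = 0.0345), the 1 member called higher there, with all 3 WT IR libraries above WT sham, as in 28% of all tested genes. WT IR 3 was the highest by far. Without it the difference was 0.35 and did not pass (adjusted p = 0.0882), and leaving out any 1 WT sham library also lost the call (adjusted p 0.0665 to 0.102). With no filter on the mean level the call was lost too (adjusted p = 0.0967). In cKO IR the difference from cKO sham was 0.21 ± 0.21 (adjusted p = 0.427), and cKO sham lay wholly above WT sham, as 13% of all tested genes did (0.29 ± 0.21, adjusted p = 0.716).

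mt-Rnr2, the 16S rRNA of the large subunit (chrM:1094-2675), stood at 488, 638 and 743 FPKM in WT sham and 534, 527 and 988 in WT IR, and at 609.9, 528 and 569 in cKO sham and 687, 564 and 583 in cKO IR. WT IR 3 was again the highest library, and no comparison passed (0.09 ± 0.24 in WT IR, adjusted p = 0.790). Both rRNAs together took 0.110 to 0.263% of the reads of a library. Whether poly(A) RNA was selected or rRNA removed before sequencing is not given in the sources used here, so the rRNA levels may not be comparable with those of mRNAs.

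Of the 22 tRNA genes 19 passed the filter. They held 57873 reads over the 12 libraries, 74.4% of them on mt-Tp, mt-Te and mt-Tl2, while 10 genes had fewer than 200 reads each over all libraries. Reads of a mature tRNA and of a longer precursor that spans the gene cannot be told apart in these values. The tRNA share of all reads was 0.0382 ± 0.00397% (WT sham) and 0.0309 ± 0.00209% (WT IR) in the wild type, and 0.0316 ± 0.00175% (cKO sham) and 0.0301 ± 0.00220% (cKO IR) in the knockout, SD with n = 3, with WT sham above WT IR and above cKO sham without overlap (exact p = 0.1 in each). In cKO sham 4 tRNAs lay wholly below WT sham (mt-Te, mt-Ty, mt-Th and mt-Tl1) and 1 wholly above (mt-Tm), beside 12% and 13% of all tested genes, and none passed. Along the stretch that chromosome 1 repeats, mt-Ts1, mt-Td and mt-Tk had means of 1.89, 0.224 and 2.67 FPKM, and mt-Tg and mt-Tr had 52.4 and 49.4.

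mt-Te, the gene next to mt-Nd6, stood at 1752, 1703 and 1901 FPKM in WT sham and 1048, 1111 and 866 in WT IR, and at 1338, 1343 and 1325 in cKO sham and 1098, 1031 and 738 in cKO IR. It fell in WT IR by 0.83 on the log2 scale (SE 0.16, adjusted p = 0.00206) and in cKO IR by 0.50 (SE 0.16, adjusted p = 0.0209), without overlap in either. Leaving out 1 library lost the call in the knockout for cKO sham 1, cKO sham 2 or cKO IR 3 (adjusted p 0.0545 to 0.0633). With no filter on the mean level mt-Te passed in neither genotype (adjusted p = 0.0509 in WT IR and 0.223 in cKO IR). mt-Ty stood at 198, 263 and 288 FPKM in WT sham and 173, 145 and 124 in WT IR, and at 196, 178 and 183 in cKO sham and 142, 110.0 and 134 in cKO IR. It fell in WT IR by 0.76 (SE 0.16, adjusted p = 0.00409) and in cKO IR by 0.53 (SE 0.16, adjusted p = 0.0189), again without overlap. These were the 2 members called in both comparisons of IR with sham, and mt-Ty in WT IR was the 1 call that held in all 20 alternatives run; in cKO IR it was lost without cKO sham 1 or cKO IR 2 (adjusted p = 0.0612 and 0.0754).

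mt-Tw stood at 76.3, 167 and 196 FPKM in WT sham and 83.4, 46.5 and 52.2 in WT IR, and at 78.9, 91.4 and 81.9 in cKO sham and 54.2, 95.5 and 58.0 in cKO IR. It fell in WT IR by 1.19 (SE 0.35, adjusted p = 0.0176), although WT sham 1 lay inside the WT IR range. Without WT sham 2, WT sham 3 or WT IR 3 that call was lost (adjusted p 0.0560 to 0.0719). mt-Th stood at 87.3, 91.9 and 113 FPKM in WT sham and 90.4, 102 and 81.4 in WT IR, and at 71.0, 56.5 and 65.5 in cKO sham and 92.5, 101 and 70.5 in cKO IR. It rose in cKO IR by 0.44 ± 0.15 (adjusted p = 0.0348), with cKO IR 3 inside the cKO sham range, and had the lowest adjusted p of all members in cKO sham against WT sham (−0.59 ± 0.15, adjusted p = 0.127, not passed). The rise in cKO IR did not pass without cKO sham 2, cKO sham 3, cKO IR 1 or cKO IR 2 (adjusted p 0.0670 to 0.129). Nor did this rise pass with no filter on the mean level (adjusted p = 0.0721) or with limma-voom (0.0796).

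mt-Tk, the lysine tRNA, was called higher in cKO IR on very few reads: 15 over the 3 cKO IR libraries and 1 over the 3 cKO sham libraries. Scaled to the deposited library sizes, the ratio was 14.2, with a 95% exact counting interval of 2.18 to 596. WT sham held 12 reads, none of them in WT sham 1, and WT IR held 3. The adjusted p was 0.0153, and the call was lost without cKO sham 1 or cKO sham 3 (0.0516 and 0.0509). mt-Tp, with the most tRNA reads, stood at 1633, 1508 and 1798 FPKM in WT sham and 1550.0, 1691 and 1442 in WT IR, and at 1880.2, 1646 and 1804 in cKO sham and 1716, 1669 and 1396 in cKO IR, and the groups overlapped in every comparison. mt-Tl2, a leucine tRNA, stood at 559, 938 and 806 FPKM in WT sham and 563, 762 and 395 in WT IR, and at 489, 421 and 614 in cKO sham and 694, 672 and 565 in cKO IR, also with overlap throughout. The other 12 tested tRNAs had no call; their group means ran from 0 FPKM (mt-Tt in cKO sham, where 0 reads in a library allow up to 3.08) to 477 (mt-Tc in WT sham).

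**Figure D4:**
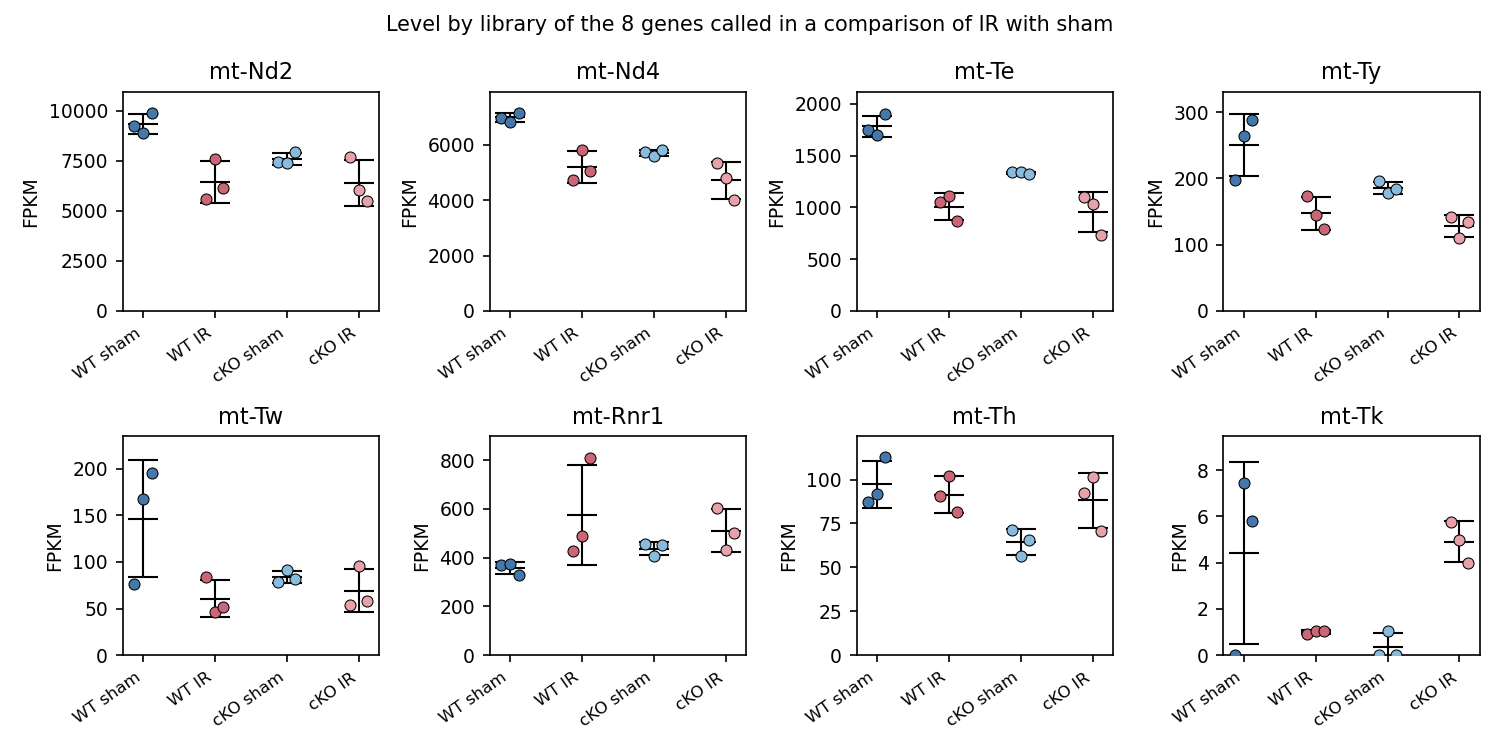
FPKM in each library of the 8 members called in a comparison of IR with sham; points are libraries, and bars give the group mean ± SD (n = 3). In mt-Te and mt-Ty every IR library lies below every sham library of its genotype, while mt-Tw overlaps between WT sham and WT IR, and mt-Tk rests on 0 to 7 reads per library.

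Nuclear genes that work with the mitochondrial ones were set beside them from lists of their known roles. In WT IR nuclear subunits of the same complexes fell: 16 of 36 in complex I (median −0.39), 4 of 9 in complex III (−0.39), 7 of 10 in complex IV (−0.47) and 8 of 15 in complex V (−0.46), with none higher. Complex II, which has no mitochondrial gene, had 3 of 4 subunits lower (median −0.62). Beside these, 19.5% of all tested genes were lower, and the 13 mitochondrial mRNAs had a median of −0.39. Examples are Ndufs1, an electron-carrying subunit of complex I (−0.79 ± 0.15, adjusted p = 0.00189), Uqcrc2, a core subunit of complex III (−0.55 ± 0.12, 0.00513), Cox5b of complex IV (−0.60 ± 0.17, 0.0157), Atp5a1, the alpha subunit of the ATP synthase (−0.60 ± 0.14, 0.00561), and Sdha of complex II (−0.79 ± 0.18, 0.00477).

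In cKO IR against cKO sham the mitochondrial mRNAs had a median of −0.08 and no call. Of the nuclear subunits 11 of 36 (complex I, median −0.33), 3 of 4 (complex II, −0.51), 3 of 9 (complex III, −0.32), 1 of 10 (complex IV, −0.29) and 4 of 15 (complex V, −0.32) were lower and none higher, beside 23.1% of all tested genes called lower; the counts of complexes I and V are near that share and that of complex IV is below it. In cKO sham against WT sham no nuclear subunit was called, and the list medians were −0.16 to −0.08, beside −0.38 for the 13 mitochondrial mRNAs. The difference between nuclear and mitochondrial genes was itself not tested.

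Genes that copy and transcribe mitochondrial DNA stand beside 19.5% of all tested genes called lower in WT IR and 23.1% in cKO IR. Of 10 genes for replication and maintenance 5 were lower in WT IR and none higher, among them Rrm2b (−0.40 ± 0.08, adjusted p = 0.00251) and Tk2 (−0.41 ± 0.09, 0.00570), which supply its building blocks, and of 8 for transcription 3 were lower: Polrmt, the mitochondrial RNA polymerase (−0.44 ± 0.10, adjusted p = 0.00560), Tfam, which packages the DNA and starts transcription (−0.28 ± 0.08, 0.0162), and Tfb2m, which opens the promoter (−0.33 ± 0.10, 0.0191). In cKO IR 4 of the 10 and 1 of the 8 were lower: Tfam passed (−0.32 ± 0.08, 0.00706), while Polrmt stood at −0.08 ± 0.10 (0.542) and Tfb2m at −0.04 ± 0.10 (0.745). Tfam is on both lists and is counted in each.

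Among 21 genes for the processing and decay of mitochondrial RNA, 4 rose and 3 fell in WT IR, and 2 rose and 2 fell in cKO IR. All 4 counts are below the shares of all tested genes (22.6% higher and 19.5% lower in WT IR, 27.8% and 23.1% in cKO IR). Trmt10c, a subunit of the enzyme that cuts tRNAs at their 5′ end, rose in WT IR (0.46 ± 0.08, adjusted p = 0.00128), with 0.14 ± 0.08 in cKO IR (adjusted p = 0.170). Rexo2, which degrades short RNA, rose in both (0.55 ± 0.11 and 0.86 ± 0.11, adjusted p = 0.00235 and 0.000110). Grsf1, an RNA-binding protein of the mitochondrial RNA granules, fell in both (−0.52 ± 0.10 and −0.53 ± 0.10, adjusted p = 0.00254 and 0.00163).

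Of 9 regulators of mitochondrial biogenesis 6 fell and 1 rose in each genotype with IR, beside 19.5% and 23.1% of all tested genes called lower in WT IR and cKO IR and 22.6% and 27.8% called higher. Pprc1, a coactivator related to PGC-1alpha, was the one that rose (1.32 ± 0.14 in WT IR, adjusted p = 9.91e-05), and Esrrb (−1.30 ± 0.23, 0.00126), an orphan nuclear receptor, and Ppargc1b (−0.57 ± 0.11, 0.00175), which codes for PGC-1beta, fell. Of 77 genes for proteins of the mitochondrial ribosome 13 rose and 2 fell in WT IR, and 22 rose and 1 fell in cKO IR; the counts of rises are below or near the shares of all tested genes called higher (22.6% and 27.8%). The 3 with the smallest p were Mrpl33 (1.04 ± 0.15, 0.000422), Mrpl52 (0.98 ± 0.16, 0.000789) and Mrps18b (0.92 ± 0.09, 6.59e-05). Their list median was 0.03 in WT IR, near that of all tested genes. No gene of these lists was called in cKO sham against WT sham.

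Cell type markers stand beside the same shares of all tested genes. In WT IR 11 of 14 proximal tubule markers fell and none rose, and their summed level was 7200 to 17020 FPKM against 25659 to 27808 in WT sham. The highest single marker of that list had a mean of 20890 FPKM in WT sham and 8822 in WT IR. Such a sum therefore rests largely on 1 gene. Of 10 markers of the thick limb and the distal convoluted tubule 9 fell (655 to 1140 against 1614 to 1737 FPKM summed). In cKO IR 13 of 14 and 10 of 10 fell, to 9257 to 12155 from 19970 to 26906 and to 519 to 799 from 1468 to 2063. The 3 tested neutrophil markers rose in both genotypes, from at most 2.74 FPKM summed in any sham library to 9.98 to 47.9 in WT IR and 16.2 to 21.9 in cKO IR. All 5 red blood cell markers fell in WT IR, and none passed in cKO IR. Of the other lists (higher and lower of those tested), collecting duct had 0 and 5 of 11 in WT IR and 0 and 7 in cKO IR, macrophage 2 and 1 of 8 and 3 and 1, stroma 2 and 1 of 6 and 1 and 1, podocyte 0 and 1 of 6 and 0 and 1, endothelium 0 and 1 of 8 and 0 and 2, and fat and adrenal 1 and 0 of 2 and 0 and 0. None of 5 lymphocyte markers passed the filter. The part of these cell types in the mitochondrial values was not tested.

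In cKO sham against WT sham, where the mitochondrial share differed, no marker of any list was called. The summed proximal tubule level overlapped (19970 to 26906 against 25659 to 27808 FPKM) with a median log2 difference of −0.08, and that of the thick limb and distal tubule overlapped as well (median −0.02). The proximal tubule sum rests largely on its highest marker (mean 17914 FPKM in cKO sham and 20890 in WT sham). The red blood cell markers had a median of −0.86, and their summed levels, 194 to 270 FPKM against 281 to 906 in WT sham, did not overlap. The stroma markers had a median of 0.68, with summed levels of 58.4 to 80.1 FPKM against 44.0 to 49.9, also without overlap. The summed neutrophil level (2.12 to 2.74 FPKM against 1.74 to 2.10) and lymphocyte level (0.821 to 2.17 against 3.12 to 3.99) did not overlap either, and those of the other lists did. No lymphocyte marker passed the filter, and the highest had a mean of 1.94 FPKM in WT sham. Of all tested genes, 13% lay wholly higher and 12% wholly lower in this comparison. The part of these cell types in the difference was not tested.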

How the data were processed

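Total RNA of 12 kidney libraries was sequenced; the authors deposited 1 table of FPKM values, aligned with HISAT2 2.2.1 (builds mm8 and mm9 are both named) per the submitters' processing notes. The counting program, its annotation and its use of strand were not given in sources used here. In each library 100% of the values above 0, times gene length, were whole multiples of a common step, which gave back the reads (13187531 to 15962303 per library); the deposited library sizes equal median-of-ratios size factors. Shares are percents of these reads, compared by 2-sided exact permutation tests. Genes whose mean reached 1 FPKM were fitted as log2(FPKM + 1) with limma 3.58.1 (R 4.3.3) over all 4 groups, with empirical Bayes moderation following the mean and Benjamini-Hochberg adjustment over 12868 genes; this scale understates changes of low genes. The fit was tested on simulated data. Members and gene lists were chosen with earlier results of these data known. Values are given in every library for the 13 mRNAs and 2 rRNAs; tRNAs are named if they held the most reads or were called (the latter chosen after their values were seen), and other lists by the 3 smallest p in WT IR or cKO sham against WT sham. Sequences were read from GENCODE M21 transcripts with biopython 1.88. Alternatives covered the pseudocount, the filter, the scaling, limma-voom on the recovered reads, a replicate block and each library left out.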

Additional observations from a re-analysis of the deposited data

How the results depend on the processing

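The count of members called in WT IR against WT sham was 6. It was 8 with limma-voom, 2 without a filter and 10 with a minimum mean of 5 FPKM. With 1 library left out it was 2 to 12 (12 without WT IR 2, 3 without WT sham 2, 2 without WT sham 3 or WT IR 3). In cKO IR against cKO sham the count of 4 was 3 with limma-voom and 2 without a filter. It was 1 to 7 with 1 library left out (1 without cKO sham 1, 2 without cKO sham 2 or cKO sham 3, 7 without WT sham 1). In cKO sham against WT sham it was 0 to 2, with 2 only without WT sham 1 (mt-Tn and mt-Tk, lower), and in the interaction 0 to 1, also without WT sham 1 (mt-Tk). The cause of these shifts was not tested. Plain read totals move the median of all tested genes in WT IR to 0.13.

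The share of reads kept its sign in WT IR and in cKO sham against WT sham under all alternatives run. With 1 library left out it ran from −1.78 to −1.22 points in WT IR and from −1.82 to −1.55 in cKO sham, from −0.502 to 0.241 in cKO IR against cKO sham, from −0.699 to 0.0441 in cKO IR against WT IR, and from 1.01 to 1.75 in the interaction. Taken as a share of summed FPKM, which weights short genes more, it was −2.94 points in WT IR, −3.50 in cKO sham, −0.628 in cKO IR against cKO sham, −1.19 in cKO IR against WT IR and 2.31 in the interaction. Adding reads of the nuclear copies, an alternative chosen after seeing the data, gave −1.73 in cKO sham against WT sham.

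The replicate numbers share no stated source, and same-numbered libraries correlated by −0.186 to 0.401, so the numbers were not taken to pair the samples. With the replicate block 4 members were called in WT IR (mt-Nd2 and mt-Nd4 lost, adjusted p = 0.0582 and 0.0713) and 3 in cKO IR (mt-Th lost, 0.0563). The share differed by −1.51 points in WT IR and −1.71 in cKO sham. An exact test that flips the signs of the 3 paired differences gave p = 0.25 in each, the smallest that 3 pairs allow.

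Of the values of single genes under an alternative, 3304 stayed on the same side of the threshold, 45 no longer passed and 36 newly passed. Among values that passed in the main fit or the alternative, 0 turned in sign. Signs of values that passed in neither were not compared. Depth limits mt-Atp8 (23 to 100 reads per library) and the 10 tRNAs under 200 reads, for which a missing call says little.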

Other observations

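Of the 8 nuclear copies tested, 1 was called higher and 2 lower in WT IR against WT sham, beside 22.6% and 19.5% of all tested genes, and none in the other comparisons. Gm29216, the copy of part of mt-Co1, rose by 0.75 (SE 0.23, adjusted p = 0.0218), while mt-Co1 itself stood at −0.38 (adjusted p = 0.10) in the same comparison. Gm10222, the copy of mt-Nd4l, fell by 0.77 (SE 0.11, adjusted p = 0.000479), and Gm28437, the copy of mt-Co3, fell by 0.32 (SE 0.11, adjusted p = 0.0341). Gm28438, the copy of mt-Nd3, stood at 246 FPKM in WT sham 1 against 55.0 and 49.0 in the other 2 libraries of that group, while mt-Nd3 was at 226 FPKM in that library, the lowest of its group.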
